A study of Mus musculus with 2 samples.

Results

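Translation initiation factor genes encode the proteins that bring the ribosome, the initiator tRNA and the start codon of an mRNA together. They were chosen by name, as every listed gene whose mouse symbol begins with Eif and a digit from 1 to 6, without the eIF2 kinases, Y-linked genes and genes named as pseudogenes. This gave 51 genes of 34745 listed, of which 34267 have a symbol. The name pattern itself matched 63 rows, and 4 kinases, 7 pseudogenes and 1 Y-linked gene were left out. The values came from RNA sequencing of 2 libraries of peritoneal macrophages from C57BL/6 mice, 1 labelled Kdm2b knockout (genotype Kdm2b-/-) and 1 labelled wild type. In both, per the labels, the cells were elicited for 4 days with thioglycollate, a broth that recruits macrophages to the peritoneum, and were exposed to bacterial lipopolysaccharide (LPS) at 100 ng/ml. The labels disagree on the exposure, with 4 h in the sample characteristics and 3 h in the treatment protocol, and this was not resolved. They do not state how Kdm2b was disrupted, nor the age, sex and number of mice behind each library. With 1 library per group there is no spread between animals to set a difference against, so no test was made, no p-value is given, and each comparison describes these libraries.

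In the main route of initiation, eIF4E binds the cap of the mRNA, the scaffold eIF4G joins it to the RNA helicase eIF4A and to eIF3 on the small ribosomal subunit, and eIF2 carries the initiator tRNA in its GTP form. eIF1, eIF1A and eIF5 govern the recognition of the start codon, eIF5B brings in the large subunit, and eIF2B returns eIF2 to its GTP form. In macrophages, LPS signalling reaches this step through mTORC1, which phosphorylates the eIF4E-binding proteins, and through the MNK kinases, which phosphorylate eIF4E.

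The deposited values are in FPKM, reads scaled to the length of a gene and to the size of the library. Scaling totals of 26806536 in the knockout-labelled library and 27272347 in the wild-type library were recovered from the smallest steps between the values, and the counts given below were recovered with them. Kdm2b, which encodes a histone demethylase, was not lower in the knockout-labelled library: it had 0.326 FPKM (164 counts) there and 0.205 FPKM (105 counts) in the wild-type library. One FPKM value per gene cannot reveal the loss of single exons, so directions are given for the library as labelled and not for a verified genotype. Summed over 10 macrophage markers there were 14276 FPKM in the knockout-labelled library and 11993 FPKM in the wild-type library, with all 10 above 0 in both. Lyz2 held most of that sum, and the other 9 summed to 2867 FPKM in the knockout-labelled library and 3047 FPKM in the wild-type library, with 5 higher and 4 lower in the knockout-labelled library. The 6 B cell markers summed to 2.86 FPKM in the knockout-labelled library and 27.3 FPKM in the wild-type library. Most of that was Igkc, at 1.47 and 18.9 FPKM in these libraries, and Ighm, at 0.992 and 6.92 FPKM. The 10 mesothelial and stromal markers, all above 0, summed to 383 and 341 FPKM in the knockout-labelled and wild-type libraries. Without Dcn, at 251 FPKM in the knockout-labelled library and 248 FPKM in the wild-type library, the mesothelial and stromal list summed to 132 and 92.4 FPKM in these libraries, with 5 of 9 genes higher and 4 lower in the knockout-labelled library. Among them the collagen genes stood apart, with Col1a1 at a log2 ratio of 1.87, Col1a2 at 1.24 and Col3a1 at 1.18. Of 6 T and NK cell markers, Cd3d, Cd3e, Cd3g, Ncr1 and Nkg7 were at 0 in both libraries, and the 6 neutrophil markers summed to 14.9 and 14.3 FPKM in the knockout-labelled and wild-type libraries, where Retnlg, Mpo and Ly6g were listed at 0. Nearly all of the neutrophil sum was S100a8, at 14.6 FPKM in the knockout-labelled library and 13.8 FPKM in the wild-type library. The part of these other cells in the results was not tested, and in such bulk samples fewer cells of a type and less RNA per cell cannot be told apart.

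The initiation factor genes were close between the libraries. Of the 51 genes, 48 had a mean of at least 1 FPKM over both libraries and are described by the log2 ratio of FPKM + 1, knockout-labelled over wild-type. None of the 48 was 1.5-fold apart on this scale, where 7.48% of the 9016 genes past the same floor were, and none was 2-fold apart, where 1.87% of all genes were. Of the 40 members with a mean of at least 5 FPKM none was 1.5-fold apart, where 7.01% of 4737 such genes were. The log2 ratios of the 48 ran from -0.40 for Eif2s3x to 0.52 for Eif4g1, with a median of 0.03 and an SD of 0.22, beside a median of 0.10 and an SD of 0.36 over all genes. Counted by sign, 28 of the 48 were above 0 and 20 below, where 63.2% and 36.8% of all genes were, and 17 lay above the median of all genes and 31 below it. With the floor raised to 5 FPKM the medians lay closer together, at 0.015 for the 40 members and 0.040 for the 4737 genes. The place of the members below 0.10 therefore depends on the level of the genes they are set beside. The absolute log2 ratio was under 0.2 for 32 of the 48, while 9 were at least 0.3 higher and 3 at least 0.3 lower in the knockout-labelled library.

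**Figure D1:**
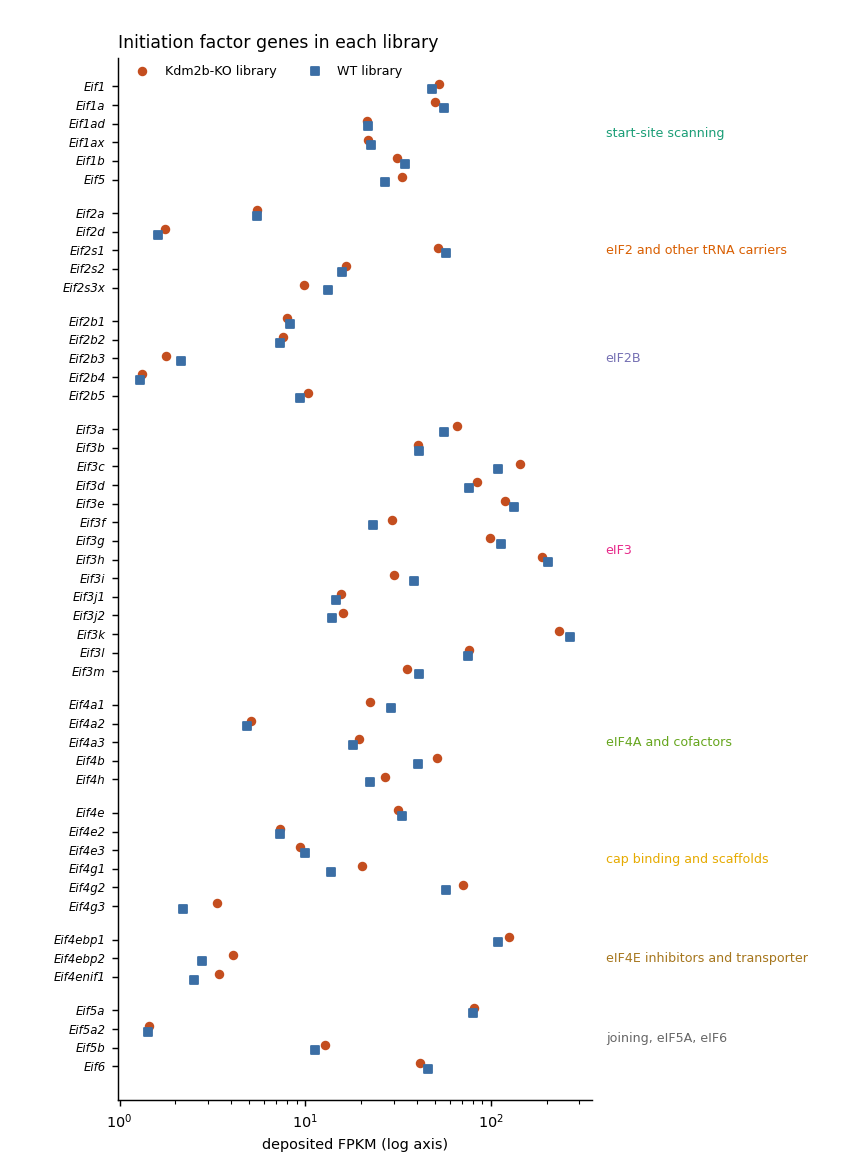
Deposited FPKM (log axis) of the 48 initiation factor genes past the floor, grouped by role, with the knockout-labelled library as circles and the wild-type library as squares. Paired points lie close together in every group, and the widest gaps are those of Eif4g3, Eif4ebp2, Eif4g1 and Eif4enif1.

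Counting error alone was small beside the largest of these ratios, but not beside many of the smaller ones. The 48 genes had between 194 and 26588 counts in the knockout-labelled library and between 196 and 27016 in the wild-type library, and 12 had fewer than 1000 in either library. An exact 95% counting interval of the ratio without a pseudocount lay above 0 for 20 members and below 0 for 14, where this held for 48.5% and 24.1% of all genes. These intervals hold counting error alone and take each count as an independent molecule, which PCR copies are not. They may also be too narrow. Among 1046 genes with 4 to 9 counts in both libraries together, the squared difference between the libraries was 2.49 times its counting variance. Among 659 genes with 40 to 79 counts it was 5.26 times. This excess holds real differences between the libraries as well as technical noise, and 1 library per group cannot separate them. The members have more counts than these, and their excess was not measured. Scaling matters as well, since 22 of the 48 members changed sign under at least 1 of the alternative settings, while 14 stayed above 0 and 12 below 0 under all of them.

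**Figure D2:**
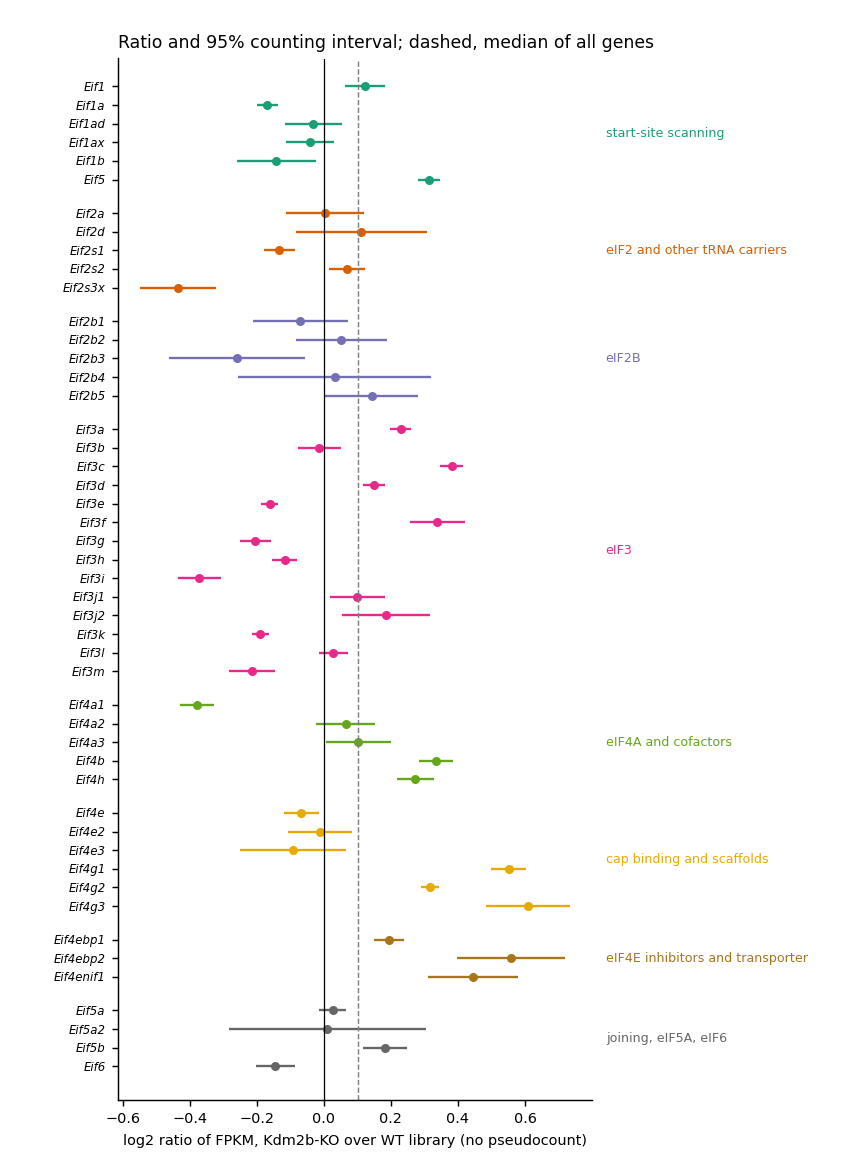
Log2 ratio of FPKM without a pseudocount, knockout-labelled library over wild-type library, for each member by role, with 95% counting intervals as bars. The dashed line marks the median of all genes at 0.10 (on FPKM + 1), and all 3 eIF4G genes lie to its right while all 3 eIF4E genes lie to its left.

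Of the scaffold genes, Eif4g1 and Eif4g3 held the highest ratios of all members, and Eif4g2 lay below Eif4ebp2, Eif3c, Eif4enif1, Eif4b and Eif3f. Eif4g1, which encodes the main scaffold that binds eIF4E, eIF4A and eIF3 (ENSMUSG00000045983, chromosome 16, 20668313 to 20692884, GRCm38), had 20.1 FPKM (7320 counts) in the knockout-labelled library and 13.7 FPKM (5082 counts) in the wild-type library. Its log2 ratio was 0.52, with a counting interval of 0.50 to 0.60 for the ratio without a pseudocount. Eif4g3, a paralogue with the same scaffold role (ENSMUSG00000028760, chromosome 4, 137993022 to 138208508), had 3.37 FPKM (1318 counts) and 2.21 FPKM (879 counts) in the knockout-labelled and wild-type libraries, a log2 ratio of 0.45. It was the 1 member at least 1.5-fold apart in plain FPKM, at a ratio of 1.53. Eif4g2, also called DAP5, lacks the part that binds eIF4E and serves initiation that does not need the cap (ENSMUSG00000005610, chromosome 7, 111067750 to 111083030). It had 71.2 FPKM (26588 counts) in the knockout-labelled library and 57.2 FPKM (21722 counts) in the wild-type library, a log2 ratio of 0.31. Taken as 1 sum, the 3 scaffold genes had 35226 counts in the knockout-labelled library and 27683 in the wild-type library, a ratio of 1.29 (1.27 to 1.32).

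The 3 scaffold genes also have among the longest transcripts of the members, at 5638 bases for Eif4g1, 7995 for Eif4g2 and 8134 for Eif4g3. In these libraries log2 ratios ran higher in longer genes throughout the table. The median trend over transcript length and GC content was then removed, with both taken from the longest annotated transcript, coding or not. The log2 ratios were then 0.20 for Eif4g1, 0.14 for Eif4g3 and 0.09 for Eif4g2, still above 0. Eif3f, Eif1, Eif5, Eif3c, Eif3j2 and Eif4ebp1 then stood above Eif4g1. Each of the 3 shares part of its span with an annotated neighbour in the same direction, as 16 of the 48 members do, and with no strand marking described, reads of antisense genes could not be told apart either.

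The upstream sequences of the highest members and of the lowest one are shown so that the promoters of genes at both ends can be set side by side. They hold the 250 bases before the RefSeq start on GRCm38.p6, 5′ to 3′ on the strand of the gene, and the capitals mark the E-box letters CACGTG, which MYC and related factors are known to bind.
Eif4g1 (chr16:20672477-20672726, plus strand): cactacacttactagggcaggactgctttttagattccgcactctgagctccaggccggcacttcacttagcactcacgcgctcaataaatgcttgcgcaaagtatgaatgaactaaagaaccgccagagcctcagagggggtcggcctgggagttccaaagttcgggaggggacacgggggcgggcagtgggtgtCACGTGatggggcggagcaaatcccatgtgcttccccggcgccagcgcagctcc
Eif4g3 (chr4:137993205-137993454, plus strand): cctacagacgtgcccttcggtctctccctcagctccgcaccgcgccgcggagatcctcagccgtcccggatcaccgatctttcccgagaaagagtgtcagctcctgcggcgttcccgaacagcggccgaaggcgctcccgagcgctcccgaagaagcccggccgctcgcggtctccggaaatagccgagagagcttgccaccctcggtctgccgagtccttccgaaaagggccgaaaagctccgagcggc
Eif2s3x (chrX:94212652-94212901, minus strand): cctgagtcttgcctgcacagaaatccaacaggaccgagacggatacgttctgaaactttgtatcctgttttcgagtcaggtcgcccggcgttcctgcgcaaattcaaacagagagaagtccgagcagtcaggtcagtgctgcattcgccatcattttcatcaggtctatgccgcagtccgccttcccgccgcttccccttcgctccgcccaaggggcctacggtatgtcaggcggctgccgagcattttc
Only the first listed RefSeq start of each of these genes was used, and other starts were not looked at. By the gene spans given here, the windows of Eif4g1 and Eif4g3 lie inside the annotated gene, and that of Eif2s3x lies partly inside. They are thus upstream of that start and not of the whole gene. The window of Eif4g1 holds the E-box letters and those of Eif4g3 and Eif2s3x do not. Over windows that run on to 50 bases past the start, read on both strands, CACGTG was present in 10 of the 38 members with an entry in the RefSeq table (26.3%). It was present in 12.2% of 6994 genes past the same floor and in 8.09% of all 27025 genes in that table. The letters CCGGAAG, a form of the site of ETS factors, stood in 15 of the 38 (39.5%), in 22.6% of the genes past the floor and in 9.93% of all genes. The TATA box letters TATAAA stood in 3 of the 38 (7.89%), in 8.69% of the genes past the floor and in 15.7% of all genes. These are letter matches and show no binding.

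The cap-binding genes lay on the other side of the scaffolds. Eif4e, the cap-binding protein itself, had 31.8 FPKM in the knockout-labelled library and 33.3 FPKM in the wild-type library (a ratio of -0.07 on the log2 scale). Eif4e2, which binds the cap and represses certain mRNAs, had 7.29 and 7.35 FPKM in the knockout-labelled and wild-type libraries (-0.01), and Eif4e3 had 9.42 and 10.03 FPKM (-0.08). All 3 were below 0 and below the median of all genes, although each turned above 0 with the libraries scaled to equal totals. Eif4e1b, a form known from the oocyte, was at 0 in both libraries. With the scaffolds included, the cap-binding and scaffold genes had 43546 counts in the knockout-labelled library and 36492 in the wild-type library, a ratio of 1.21 (1.197 to 1.23).

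The genes for proteins that hold eIF4E away from the scaffold were higher in the knockout-labelled library. Eif4ebp1, an inhibitor released from eIF4E when mTORC1 phosphorylates it, had 125 FPKM (8789 counts) there and 110 FPKM (7810 counts) in the wild-type library, a log2 ratio of 0.19. Eif4ebp2, a second such inhibitor (ENSMUSG00000020091, chromosome 10, 61428491 to 61452661), had 4.07 FPKM (767 counts) in the knockout-labelled library and 2.77 FPKM (530 counts) in the wild-type library, a log2 ratio of 0.43 and a counting interval of 0.40 to 0.72. Eif4enif1, which carries eIF4E into the nucleus and to sites of mRNA storage, had 3.44 and 2.53 FPKM in the knockout-labelled and wild-type libraries (0.33). All 3 stayed above 0 under every alternative, with 0.22, 0.14 and 0.19 for Eif4ebp1, Eif4ebp2 and Eif4enif1 after removal of the length and GC trend. Eif4ebp3, the third inhibitor, was under the floor with 2 counts in the knockout-labelled library and 0 in the wild-type library.

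Among the helicase genes the values of Eif4a1 depend on a copy. Eif4a1, the main helicase that unwinds the start of the mRNA (ENSMUSG00000059796, chromosome 11, 69666936 to 69672423), had 22.3 FPKM (5572 counts) in the knockout-labelled library and 29.0 FPKM (7372 counts) in the wild-type library. Its log2 ratio of -0.36 was among the 3 lowest of all members. The processed pseudogene Eif4a-ps4 on chromosome 1 (60703932 to 60705149) was listed at 830 FPKM (27109 counts) in the knockout-labelled library and at 966 FPKM (32091 counts) in the wild-type library. Its 1218 bases match the coding sequence of Eif4a1, which has 1221 bases, at 99.92%, with 1 mismatch. The stretch around that mismatch is shown because it holds the 1 base at which the pair differs over the aligned 1218 bases. The capital marks it, G534A with positions counted from 1 at the first base of the start codon.
Eif4a1 (coding sequence, bases 474 to 593): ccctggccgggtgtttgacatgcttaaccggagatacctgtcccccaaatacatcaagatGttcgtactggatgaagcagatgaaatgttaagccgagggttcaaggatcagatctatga
Eif4a-ps4 (chr1:60704405-60704524, plus strand, GRCm38): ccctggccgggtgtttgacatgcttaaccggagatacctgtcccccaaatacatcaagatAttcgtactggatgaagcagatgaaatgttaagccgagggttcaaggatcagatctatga
The pseudogene held 82.95% (82.5% to 83.4%, exact binomial interval) of the counts of the pair in the knockout-labelled library and 81.3% (80.9% to 81.7%) in the wild-type library. Summed, the pair had 32681 counts in the knockout-labelled library and 39463 in the wild-type library, a log2 ratio of -0.25 (-0.27 to -0.23). Both rows and their sum were therefore lower in the knockout-labelled library, by different amounts. How the authors assigned reads that match both places was not stated in the labels, so the level of Eif4a1 alone is uncertain.

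**Figure D3:**
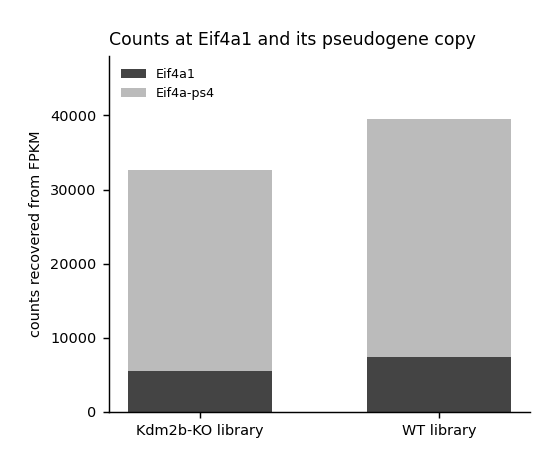
Counts recovered from FPKM for Eif4a1 (dark) and its processed pseudogene Eif4a-ps4 (light), stacked, in the knockout-labelled library (left) and the wild-type library (right). The pseudogene row holds 82.95% of the pair in the knockout-labelled library and 81.3% in the wild-type library, and the whole bar is lower in the knockout-labelled library.

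The other helicase and cofactor genes were above 0. Eif4a2, a close paralogue of Eif4a1, had 5.11 FPKM in the knockout-labelled library and 4.88 FPKM in the wild-type library (a ratio of 0.06 on the log2 scale). Eif4a3, the helicase of the exon junction complex, had 19.5 and 18.2 FPKM in the knockout-labelled and wild-type libraries (0.10). Both crossed 0 when the libraries were scaled to a median log2 ratio of 0 over all genes. The cofactors that raise the activity of eIF4A were further apart: Eif4b had 51.1 FPKM (7282 counts) in the knockout-labelled library and 40.5 FPKM (5876 counts) in the wild-type library (0.33). Eif4h had 27.1 FPKM (5669 counts) and 22.4 FPKM (4773 counts) in the knockout-labelled and wild-type libraries (0.26). Both cofactors stayed above 0 under every alternative, at 0.18 for Eif4b and 0.09 for Eif4h after removal of the length and GC trend.

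The eIF3 subunit genes went both ways. eIF3 is the large complex on the small ribosomal subunit that receives eIF4G, and its 14 genes here had a median log2 ratio of 0.01, with 7 above 0 and 7 below. Their counts summed to 137806 in the knockout-labelled library and 141161 in the wild-type library, a ratio of 0.993 (0.986 to 1.001). The subunits ran from -0.36 for Eif3i to 0.38 for Eif3c.

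Of the core subunits, Eif3c, known from yeast to contact eIF1 and eIF5 (ENSMUSG00000030738, chromosome 7, 126546455 to 126566411), had 143 FPKM (14947 counts) in the knockout-labelled library and 110 FPKM (11674 counts) in the wild-type library. Its log2 ratio was 0.38, with a counting interval of 0.35 to 0.42. Eif3a, the largest subunit, had 65.6 and 55.98 FPKM in the knockout-labelled and wild-type libraries (0.23). Eif3b, the centre of the module that also holds Eif3g and Eif3i, stood at 40.4 and 40.8 FPKM (-0.01). Eif3i, its WD-repeat partner (ENSMUSG00000028798, chromosome 4, 129591960 to 129600648), was the lowest subunit, at 30.001 FPKM (3422 counts) in the knockout-labelled library and 38.8 FPKM (4504 counts) in the wild-type library. Its log2 ratio was -0.36, with a counting interval of -0.44 to -0.31. Eif3g, an RNA-binding subunit of the same module, had 99.2 FPKM in the knockout-labelled library and 114 FPKM in the wild-type library (-0.20). So Eif3g and Eif3i were below 0 and Eif3a and Eif3c above 0 under every alternative, and Eif3b lay on either side depending on the scaling.

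Among the other subunits, Eif3f, which has an MPN domain, had 29.5 FPKM (2801 counts) in the knockout-labelled library and 23.3 FPKM (2253 counts) in the wild-type library, a log2 ratio of 0.33. Its partner of the same domain, Eif3h, had 189 and 205 FPKM in the knockout-labelled and wild-type libraries (-0.12). Eif3d, which binds the cap of certain mRNAs, stood at 84.9 and 76.5 FPKM (0.15). Eif3e, Eif3k and Eif3m were lower in the knockout-labelled library. They had 120, 234 and 35.3 FPKM there, and 134, 267 and 41.0 FPKM in the wild-type library (-0.16, -0.19 and -0.21). Eif3l, which binds Eif3k, had 76.5 FPKM in the knockout-labelled library and 75.04 FPKM in the wild-type library (0.03). Without the trend in length and GC content, Eif3f stood highest of all members, at 0.26, with Eif3c at 0.23 and Eif3i at -0.38. For Eif3i the longest annotated transcript, used for the trend, has 2323 bases, while its longest coding transcript has 1123. A trend over coding transcripts was not run, so the value of Eif3i depends on that choice.

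The loosely bound subunit eIF3j is encoded by a pair of near-identical genes. Eif3j1 had 15.7 and 14.6 FPKM in the knockout-labelled and wild-type libraries (0.09), and Eif3j2 had 15.9 and 13.99 FPKM (0.17). The transcripts match at 99.4% over 2379 bases, so the authors' counting could have split reads between them, and Eif3j2 held 28.7% of the counts of the pair in the knockout-labelled library and 27.5% in the wild-type library. Their sum, at 3536 counts in the knockout-labelled library and 3301 in the wild-type library, had a log2 ratio of 0.12 (0.06 to 0.19).

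The genes of start-site scanning were led by Eif5. Eif5, which makes eIF2 hydrolyse its GTP once the start codon is found, had 33.4 FPKM (17017 counts) in the knockout-labelled library and 26.9 FPKM (13921 counts) in the wild-type library, a log2 ratio of 0.30. Eif1, which keeps the ribosome scanning, had 52.8 and 48.5 FPKM in the knockout-labelled and wild-type libraries (0.12), and its paralogue Eif1b had 31.1 and 34.3 FPKM (-0.14). The eIF1A genes were at or below 0: Eif1a had 49.9 FPKM in the knockout-labelled library and 56.1 FPKM in the wild-type library (-0.16), and Eif1ax, its X-linked form, had 21.9 and 22.6 FPKM in the knockout-labelled and wild-type libraries (-0.04). Eif1ad, a relative of eIF1A known in human cells for a role in ribosome assembly, had 21.4 and 21.9 FPKM (-0.03). Eif5 stayed above 0 and Eif1a below 0 under every alternative, and the other 4 crossed 0 under at least 1. Eif1 has 16 near-identical copies elsewhere in the annotation, most of them processed pseudogenes.

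The 3 subunits of eIF2 had unlike ratios. Eif2s1, the subunit whose phosphorylation shuts initiation down, had 52.3 FPKM (7206 counts) in the knockout-labelled library and 57.3 FPKM (8040 counts) in the wild-type library (-0.13). Eif2s2, the beta subunit, had 16.7 and 15.9 FPKM in the knockout-labelled and wild-type libraries (0.07). Eif2s3x, the X-linked gene of the GTP-binding gamma subunit (ENSMUSG00000035150, chromosome X, 94188707 to 94212862), had 9.82 FPKM (1083 counts) in the knockout-labelled library and 13.3 FPKM (1489 counts) in the wild-type library. Its log2 ratio of -0.40, with a counting interval of -0.55 to -0.32, was the lowest of the members and stayed lowest, at -0.49, without the trend in length and GC content.

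Eif2s3y, the Y-linked gene of the same subunit and not a member, had 10.2 FPKM (1612 counts) in the knockout-labelled library while the wild-type library listed it at 0. Added to Eif2s3x it gave 2695 counts in the knockout-labelled library and 1489 in the wild-type library, a log2 ratio of 0.88 (0.79 to 0.97). The gamma subunit was thus lower in the knockout-labelled library by its X-linked gene alone and higher by the sum of both genes. The libraries therefore differed in the presence of Y-linked RNA as well as in their genotype label. With 1 library per group these differences cannot be told apart, for Eif2s3x and for every other gene. The part of Y-linked RNA in the other results was not tested. Eif2s3x also matches the processed pseudogene Gm2223 over 1350 bases at 100%.

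The genes of other proteins that can deliver the initiator tRNA were close, with Eif2a at 5.52 FPKM in the knockout-labelled library and 5.50 FPKM in the wild-type library (0.00) and Eif2d at 1.75 and 1.62 FPKM in the knockout-labelled and wild-type libraries (0.07). The eIF2B genes, whose product recharges eIF2, had counts of 3136 in the knockout-labelled library and 3180 in the wild-type library, a ratio of 1.003 (0.955 to 1.05). Eif2b5, the catalytic subunit, had 10.4 and 9.43 FPKM in the knockout-labelled and wild-type libraries (0.13). Eif2b3, which pairs with it, was on the other side, at 1.78 and 2.13 FPKM (-0.17). The regulatory subunits Eif2b1, Eif2b2 and Eif2b4 had 7.94, 7.62 and 1.32 FPKM in the knockout-labelled library and 8.34, 7.35 and 1.29 FPKM in the wild-type library. Their log2 ratios were -0.06, 0.05 and 0.02, each with a counting interval that included 0.

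Of the late factors, Eif5b, the GTPase that joins the subunits, had 12.9 FPKM (3861 counts) in the knockout-labelled library and 11.3 FPKM (3462 counts) in the wild-type library, a log2 ratio of 0.17. It crossed to -0.07 when the trend in length and GC content was removed. Eif5a, which carries the modified lysine hypusine and helps the ribosome past difficult stretches, had 81.4 and 79.97 FPKM in the knockout-labelled and wild-type libraries (0.03). Its rarer paralogue Eif5a2 had 1.44 and 1.43 FPKM (0.01), with 194 and 196 counts. Eif6, which keeps the large subunit apart from the small one, had 41.3 FPKM in the knockout-labelled library and 45.7 FPKM in the wild-type library (-0.14) and stayed below 0 under every alternative. Eif2c5, the last member, is an old name within the Argonaute family rather than an initiation factor, and its noncoding row was at 0 in both libraries.

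Levels cannot be compared between genes from the deposited FPKM as they stand. The values behaved as whole counts when multiplied by the summed length of every distinct annotated exon of a gene, overlapping exons counted each time. For genes with several transcripts, 67.6% of the products in the knockout-labelled library and 67.8% in the wild-type library were whole within 0.02 of a count with this length. With the length of the longest transcript only 6.49% and 6.31% were. For the 48 members that summed length was 1 to 5.75 times their longest coding transcript, with a median of 2.07, so the FPKM of a member with many annotated transcripts is low for its counts. The length cancels in a plain ratio of the libraries but not in one with a pseudocount.

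With counts divided by the longest coding transcript instead, in the same FPKM unit and with the same pseudocount, none of the 48 members was 1.5-fold apart and none turned its sign. The largest shift in a log2 ratio was 0.069, to 0.40 for Eif4enif1, and Eif4g3 stood at 0.51. The recovered counts summed over all rows exceed the scaling totals, and the reason was not tested. Where that excess differs between genes, these levels and their order are uncertain. The order of levels differed from that of the deposited values. Eif3k then stood highest of the members, at 943 in the knockout-labelled library and 1076 in the wild-type library, followed by Eif3e at 588 and 658 in those libraries. Eif3h, at 310 and 336 in them, was next in both. Eif3d (303 and 273), Eif5a (260 and 255) and Eif3g (245 and 282) followed, in an order that was not the same in the knockout-labelled and wild-type libraries. Eif4a1 stood at 117 in the knockout-labelled library and 152 in the wild-type library, above Eif4a2 at 29.35 and 28.0 in them. That level leaves out the 27109 and 32091 counts listed for Eif4a-ps4 in these libraries. The place of Eif4a1 in the order of the members is therefore uncertain and could be higher. The scaffolds were ordered Eif4g2 (124 and 99.6), Eif4g1 (48.4 and 33.05) and Eif4g3 (6.045 and 3.96), and these 3 did not overlap between genes in either library. Eif4e stood at 44.4 in the knockout-labelled library and 46.5 in the wild-type library, and its inhibitor Eif4ebp1 at 164 and 143 in them. At the low end in the knockout-labelled library were Eif5a2 (1.44), Eif2b3 (3.62) and Eif2b4 (3.74), and in the wild-type library Eif5a2 (1.43), Eif4ebp2 (3.36) and Eif2b4 (3.66).

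The ratio of a member went with the length of its transcript, as it did in the whole table. Across the 48 members, Pearson's r between the log2 ratio and log2 transcript length was 0.42 and Spearman's rho was 0.38. Across all 9016 genes they were 0.41 and 0.46. Genes of the same library share its depth and fragmentation and are not independent replicates, so these values are a description. The 11 members of up to 2000 bases had a median log2 ratio of -0.12, the 24 over 2000 and up to 4000 bases 0.01, and the 13 over 4000 bases 0.17. All genes in those classes had medians of -0.12, 0.10 and 0.24. After removal of the length and GC trend, r over the members was -0.01 and their median was -0.03, with 22 above 0 and 26 below and a range of -0.49 to 0.26. The 77 cytosolic ribosomal protein genes, which are shorter and also serve translation, had a median of -0.25, with 12 above 0 and 65 below, and -0.11 without the trend.

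**Figure D4:**
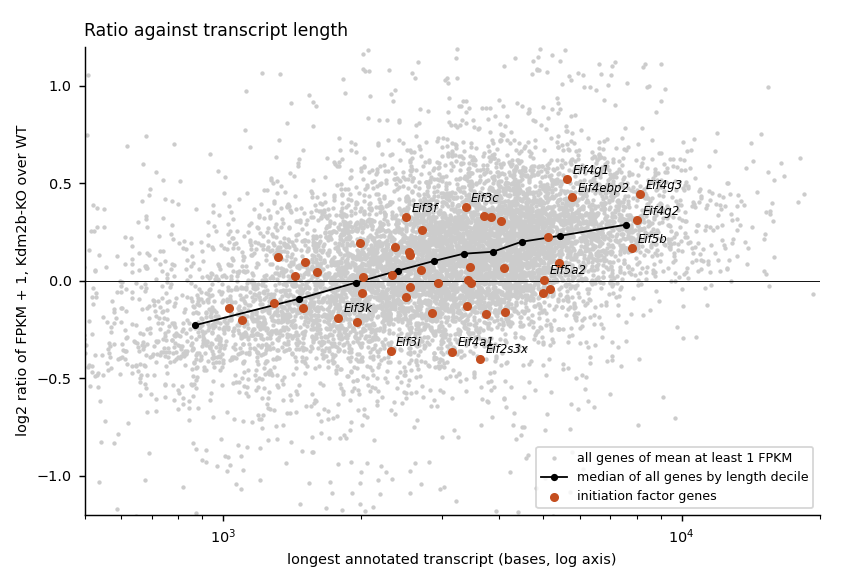
Log2 ratio on FPKM + 1, knockout-labelled library over wild-type library, against the longest annotated transcript (log axis), for all genes past the floor (grey), their medians by length decile (black line) and the initiation factor genes (coloured). The black line climbs with length, the eIF4G genes lie above it near its right end, and Eif2s3x, Eif4a1 and Eif3i lie furthest below it. The longest coding transcripts of Eif4a1 and Eif3i are shorter than the lengths drawn, at 1774 and 1123 bases. Genes beyond the limits of the axes are not drawn.

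The lists of genes around initiation were described by their medians beside the 0.10 of all genes. Their fold calls are on FPKM + 1, which leaves out some low genes that are 1.5-fold apart in plain FPKM. The 7 measured genes of the kinases and phosphatase subunits that act on eIF2 had a median log2 ratio of 0.23, with 5 above 0 and 2 below. Ppp1r15a, or GADD34, the inducible subunit that directs a phosphatase to eIF2, had 27.3 FPKM (4052 counts) in the knockout-labelled library and 14.5 FPKM (2185 counts) in the wild-type library. Its log2 ratio of 0.87 made it the 1 gene of this list at least 1.5-fold higher, where 4.69% of all genes were. The constitutive subunit gene Ppp1r15b had 35.6 and 27.3 FPKM in the knockout-labelled and wild-type libraries (0.38), and Impact, an inhibitor of the kinase GCN2, had 3.78 and 2.85 FPKM (0.31). Of the kinases, Eif2ak2, or PKR, had 46.9 FPKM in the knockout-labelled library and 49.2 FPKM in the wild-type library (-0.07), and Eif2ak1, or HRI, 6.92 and 7.06 FPKM in them (-0.02). Eif2ak4, or GCN2, had 1.67 and 1.29 FPKM (0.23) in the same libraries, and Eif2ak3, or PERK, lay under the floor at 1.198 and 0.739 FPKM. The list median was 0.00 without the trend in length and GC content, and Ppp1r15a then stood at 0.70.

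The transcription factor ATF4 is translated when eIF2 is phosphorylated, and the 13 measured genes of Atf4 and its targets had a median of 0.36, with 10 above 0 and 3 below. Atf4 itself stood at 369 FPKM in the knockout-labelled library and 371 FPKM in the wild-type library (-0.01). Slc7a11, the cystine transporter, had 18.5 FPKM (7780 counts) in the knockout-labelled library and 8.85 FPKM (3790 counts) in the wild-type library (0.98), Sesn2, an inhibitor of mTORC1 signalling, had 10.5 and 6.03 FPKM in them (0.71), and Ddit4, another such inhibitor, 5.67 and 3.39 FPKM (0.60). These 3 of the 13 were at least 1.5-fold higher, where 4.69% of all genes were, and none was 1.5-fold lower, where 2.78% were. The median was 0.31 without the trend in length and GC content. The 20 measured cytosolic aminoacyl-tRNA synthetase genes, some of which ATF4 is known to induce, had a median of 0.31, with 17 above 0 and 3 below, and 0.19 without the trend. Aars, for alanine, had 19.995 FPKM in the knockout-labelled library and 12.9 FPKM in the wild-type library (0.60). It was the 1 of the 20 at least 1.5-fold higher on FPKM + 1, a share near the 4.69% of all genes. Lars, for leucine, had 15.1 and 9.96 FPKM in them (0.56), Gars, for glycine, 39.8 and 26.8 FPKM (0.55), and Eprs, for glutamate and proline, 7.80 and 5.14 FPKM (0.52).

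Signalling to eIF4E by mTORC1 and the MNK kinases was represented by 10 measured genes with a median of 0.20, 9 of them above 0, and 0.00 without the trend. Larp1, which represses the mRNAs of ribosomal proteins under mTORC1, had 30.5 FPKM in the knockout-labelled library and 21.3 FPKM in the wild-type library (0.50), and the mTORC1 inhibitor Tsc2 had 4.85 and 3.42 FPKM in them (0.40). None of this list was 1.5-fold apart. The 17 genes of poly(A) binding and other initiation helpers had a median of 0.15, with 12 above 0 and 5 below, and 0.03 without the trend. Pabpc4, a poly(A)-binding protein, had 4.81 FPKM (1135 counts) in the knockout-labelled library and 2.72 FPKM (654 counts) in the wild-type library (0.64), and Pabpc1, the major form, 72.8 and 54.5 FPKM in them (0.41). Pabpc4 was the 1 gene of the 17 at least 1.5-fold apart on FPKM + 1, where 7.48% of all genes were. Paip2, which displaces poly(A)-binding protein, was on the other side, at 7.02 FPKM (1408 counts) in the knockout-labelled library and 11.0 FPKM (2246 counts) in the wild-type library (-0.58). Gigyf2, the partner of eIF4E2 in repression, had 2.68 and 1.60 FPKM in the knockout-labelled and wild-type libraries (0.50), and Dhx29, a helicase of the scanning ribosome, 3.02 and 1.93 FPKM (0.46).

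The later steps of translation stood nearer to the initiation factors. The 10 elongation and release genes had a median of 0.06 (0.04 without the trend). Gspt1, a release factor, was at 19.4 and 15.97 FPKM in the knockout-labelled and wild-type libraries (0.26). Eef2, the translocation factor, was at 516 FPKM in the knockout-labelled library and 437 FPKM in the wild-type library (0.24) and Eef1e1, of the synthetase complex, at 61.3 and 72.6 FPKM in them (-0.24). The 4 genes that modify eIF5A or release eIF6 had a median of 0.06, with Efl1, the GTPase that removes eIF6, at 4.89 and 3.52 FPKM in the knockout-labelled and wild-type libraries (0.38). Dohh, which completes hypusine, was at 4.64 and 3.87 FPKM (0.21). Sbds, the partner of Efl1, was at 71.2 and 80.2 FPKM (-0.17). The 8 mitochondrial translation factor genes had a median of 0.02 and none above the median of all genes, with a median of -0.09 without the trend.

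**Figure D5:**
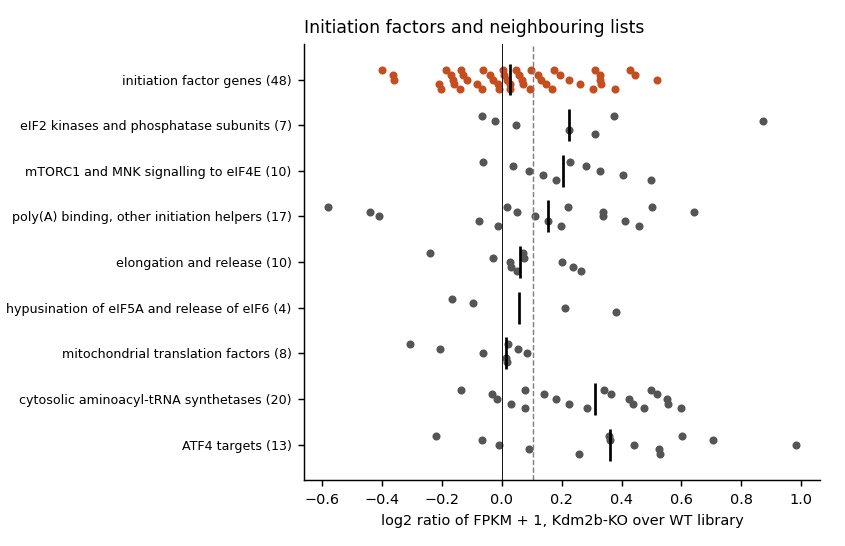
Log2 ratio on FPKM + 1, knockout-labelled library over wild-type library, of each measured gene in the initiation factor set (coloured) and in 8 neighbouring lists (grey), with black bars as medians and the dashed line as the median of all genes. The initiation factor median of 0.03 lies left of the dashed line at 0.10, and those of the ATF4 targets (0.36) and the aminoacyl-tRNA synthetases (0.31) lie furthest to its right. Past a floor of 5 FPKM, which is not drawn, the median was 0.015 for the initiation factors and 0.040 for all genes.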

How the data were processed

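Per the file headers, the authors deposited 1 FPKM value per Ensembl gene and library. HISAT2 2.0.4, StringTie 1.3.0, edgeR and the builds GRCm38.p4 and mm10 appear in the submitters' processing notes, without roles, annotation or filters. Per the labels' protocols, libraries were made from polyadenylated RNA with a paired-end TruSeq kit, with no strand marking described.

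Symbols, exons, lengths and GC content came from GENCODE M21 on GRCm38, and promoters from RefSeq on GRCm38.p6. Counts were recovered as FPKM times the summed length of distinct exons, divided by the library's step (37.3 in the knockout-labelled library, 36.7 in the wild-type library), and were whole in both libraries for 29 of the 48 members past the floor. Eif4g1, Eif4g2, Eif4ebp2, Eif4b and Eif5 were among the members whose counts were not whole, and the counts printed for them are rounded estimates. Summed over all rows the counts exceed the scaling totals, and whether a count is a read or a fragment is not given. Near-identical copies (at least 95% over 200 bases) were found with BLAST 2.17.0. Log2 ratios used a pseudocount of 1 FPKM, which understates low genes, and a floor of a mean of 1 FPKM. Intervals are exact Clopper-Pearson at 95%. The trend used 20 bins each of the length and GC content of the longest annotated transcript, coding or not. Python 3.11.15 with numpy 2.4.6, pandas 2.3.3 and scipy 1.17.1 was used. The calculations were tested on simulated counts that held counting error alone, so that test does not cover the larger spread between these libraries.

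The members and lists were chosen with earlier results of these data known. Every member was named, with the 4 eIF2 kinases and up to 4 genes of each other list with the largest ratios. Other genes, among them Atf4, Pabpc1, Eif2s3y and the collagen genes, were named after their values were seen, and the counts summed over copies and paralogues, the marker sums without 1 gene and the levels over the longest coding transcript were added then.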

Additional observations from a re-analysis of the deposited data

How the results depend on the processing

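No member was 2-fold apart under any alternative run. At 1.5-fold the count was 1 with a pseudocount of 0.1 (Eif4g3) and 2 with the libraries scaled to equal totals (Eif4g1 and Eif4g3), and 0 in each other setting. The median of the members was -0.067 with the libraries scaled to a median log2 ratio of 0, -0.079 with equal upper quartiles and 0.12 with equal totals. These move the median of all genes too, to 0.00, -0.02 and 0.21, so the members lay below it in each. That median is over genes of mostly lower level than the members. Scaling to a median of 0 turned the sign of 12 members, equal upper quartiles of 13, equal totals of 7 and removal of the length and GC trend of 8, while the other pseudocounts, floors and the restriction to protein-coding genes turned none. Among the groups, the eIF4E inhibitors and transporter ranged from 0.19 to 0.48 and eIF3 from -0.13 to 0.10. The 32 members that overlap no gene on the same strand had a median of 0.01. By choices made after the data were seen, Eif4a1 summed with its pseudogene stood at -0.25, Eif3j1 with Eif3j2 at 0.12, Eif2s3x with its Y-linked paralogue at 0.88, and the median of the members over their longest coding transcripts at 0.03. No paired analysis was possible because each group had 1 library, and for the same reason no library could be left out.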
